A study of Mus musculus with 2 samples.

Results

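Untreated dFLEx CDS tumors were compared with the Minnelide-treated tumors that their submitters named nonresponders. The comparison held 6 of the 8 tumors of the series, 4 untreated and 2 nonresponder, and left out the 2 treated tumors named responders. It used every nucleus with at least 1000 unique molecular identifiers (UMIs, each counted as 1 captured RNA molecule) and under 5% of its UMIs in mitochondrial genes. These were 41128 of the 52761 nuclei listed for the 6 tumors, and 60121 nuclei passed the same limits in all 8. Each tumor was the unit of comparison, and the nuclei of a tumor were never counted as replicates.

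dFLEx CDS mice carry a Rosa26 knock-in allele that makes the CIC::DUX4 fusion after Cre and FLPE recombination, per the study's methods, and the labels give the untreated tumors the genotype dFLEx CDS +/-. Plasmids for both recombinases were electroporated into the gastrocnemius, so that each tumor arose in place in muscle and in a mouse with an immune system. The untreated tumors received no treatment per the labels. The nonresponder tumors came from the group given Minnelide at 0.42 mg/kg over 21 days, and the labels give these no +/- or other zygosity. The labels put all 4 treated tumors in 1 group, and the response words come from the names of the matrices alone. The nonresponder tumors were thus a subset named after treatment, and an effect of the drug and a difference in which tumors were picked cannot be told apart. The labels give 1 library name to the untreated group and another to the treated group, so treatment and library cannot be told apart either. On-chip multiplexing was used. No barcode was shared by 2 tumors of the same group, while untreated tumor 3 shared 111 barcodes with nonresponder tumor 1, and untreated tumor 4 shared 63 with nonresponder tumor 2.

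CIC::DUX4 sarcoma is an aggressive small round cell tumor driven by a fusion of the repressor CIC with the C terminus of the transcription factor DUX4. The fusion turns CIC from a repressor into an activator of its own targets, among them the PEA3 family genes Etv1, Etv4 and Etv5. Minnelide dissolves in water and releases triptolide, a diterpenoid that binds the XPB helicase (gene Ercc3) of the general transcription factor TFIIH and blocks initiation by RNA polymerase II. Transcripts with a short life, such as those of immediate early and cell cycle genes, are the first to fade under such a block.

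The nuclei used ranged from 4846 to 9830 per tumor and their summed UMIs from 12721817 to 58657384. Median UMIs per nucleus were 3568, 3140, 2670 and 1729 in untreated tumors 1 to 4 and 3356 and 2933 in the nonresponder tumors. Untreated tumor 4 lost the most nuclei, with 7375 of its 12615 below 1000 UMIs. Untreated tumor 1 stood apart from the other 5. Its tumor-like nuclei differed from those of each other tumor by over 4-fold in 1049 to 1783 of 13555 genes, where pairs among the other 5 differed in 73 to 359, and one of its clusters, 2107 nuclei with all 5 tumor markers raised, also had all 8 endothelial markers raised. Results were therefore also computed without it. Y-linked genes made up 0.00096% of tumor-like UMIs for untreated tumor 4 and 0.048% to 0.0782% in the other tumors, and these genes were kept out of clustering.

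Both nonresponder tumors held a larger share of tumor-like nuclei and smaller shares of fibroblast-like and muscle fiber nuclei than any untreated tumor. Classes were named from markers, so that a tumor-like cluster had at least 3 of Etv1, Etv4, Etv5, Shc3 and Shc4 raised over the low end of the clusters of the same tumor. Tumor-like nuclei made up 23.8%, 19.8%, 50.8% and 61.4% of untreated tumors 1 to 4 and 80.5% and 76.8% of the nonresponder tumors. Exact binomial 95% intervals, which cover counting error only, reached from 60% to 62.7% in untreated tumor 4 and from 75.5% to 77.9% in nonresponder tumor 2. The groups did not overlap, with means of 38.9% ± 20.3 (SD, n = 4) and 78.6% ± 2.64 (SD, n = 2). The exact two-sided permutation test over tumors gave p = 0.1333, the smallest that 15 assignments of 4 against 2 allow, and 0.3111 after Benjamini-Hochberg adjustment over 7 classes.

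The size of that difference, 39.7 percentage points, depended on how clusters were named. A pair of clusters, 4679 nuclei or 11.4% of the total, had all 5 tumor markers raised but stayed unnamed. Their leading genes held markers of another class, Myh4 and Acta1 in 1 cluster and Acp5, Mmp9 and Ctsk in the other. Raised markers of other classes did not alone leave a cluster unnamed. The largest tumor-like cluster, of 5276 nuclei, had fibroblast, pericyte, endothelial, osteoclast and myocyte markers raised too. Nearly all nuclei of the unnamed pair came from untreated tumors 1 and 2, where unnamed nuclei made up 25.2% and 41.6%, against 0.0102% and 0.31% in the nonresponder tumors. With those clusters counted as tumor-like, the untreated tumors stood at 49%, 61.4%, 52.1% and 61.4% and the nonresponder tumors at 80.5% and 77.1%. The groups still did not overlap and the difference was 22.8 points, and with all nuclei of at least 500 UMIs it was 21.4 points. Under a stricter naming rule almost no cluster stayed tumor-like and the difference was -0.87 points. Tumor-like clusters also came mostly from 1 tumor each. Nonresponder tumor 1 supplied 99.1% of a cluster of 5276 nuclei and 100% of another of 2658, and 1 small cluster, with 141 nuclei of untreated tumor 1, 114 of untreated tumor 2 and 8 of nonresponder tumor 1, was mixed.

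Fibroblast-like nuclei, with Pdgfra and fibrillar collagen transcripts, made up 13.2%, 14.8%, 19.5% and 13.3% of the untreated tumors and 7.65% and 6.67% of the nonresponder tumors. Their groups did not overlap either, with means of 15.2% ± 2.93 (SD, n = 4) and 7.16% ± 0.696 (SD, n = 2) and the same exact p of 0.1333. Myocyte-like nuclei, from the muscle in which the tumors grew, made up 21.1%, 4.15%, 8.18% and 12.2% of the untreated tumors and 0.712% and 1.44% of the nonresponder tumors, or 70 nuclei in each of the latter. The exact permutation p was again 0.1333, and 0.3111 adjusted. How much muscle each tumor sample carried at dissection was not given. A larger share of any class lowers the shares of all others, so the differences between classes are not independent.

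Endothelial-like, macrophage-like, osteoclast-like and pericyte-like shares overlapped between the groups. Endothelial-like nuclei made up 6.77% to 10% of untreated tumors and 5.68% and 10.8% of nonresponder tumors. Macrophage-like nuclei made up 4.92%, 5.2%, 3.94% and 1.2% of the untreated tumors and 3.07% and 1.44% of the nonresponder tumors. Osteoclast-like nuclei, with Acp5, Ctsk and Dcstamp, made up 0.909% to 4.07% of untreated tumors and 0.702% and 2.19% of nonresponder tumors. Pericyte-like nuclei made up 1.61% to 2.95% and, in the nonresponder tumors, 1.62% and 0.33%, the latter only 16 nuclei. Adjusted exact permutation p-values for these 4 classes lay between 0.4667 and 0.9333.

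**Figure D1:**
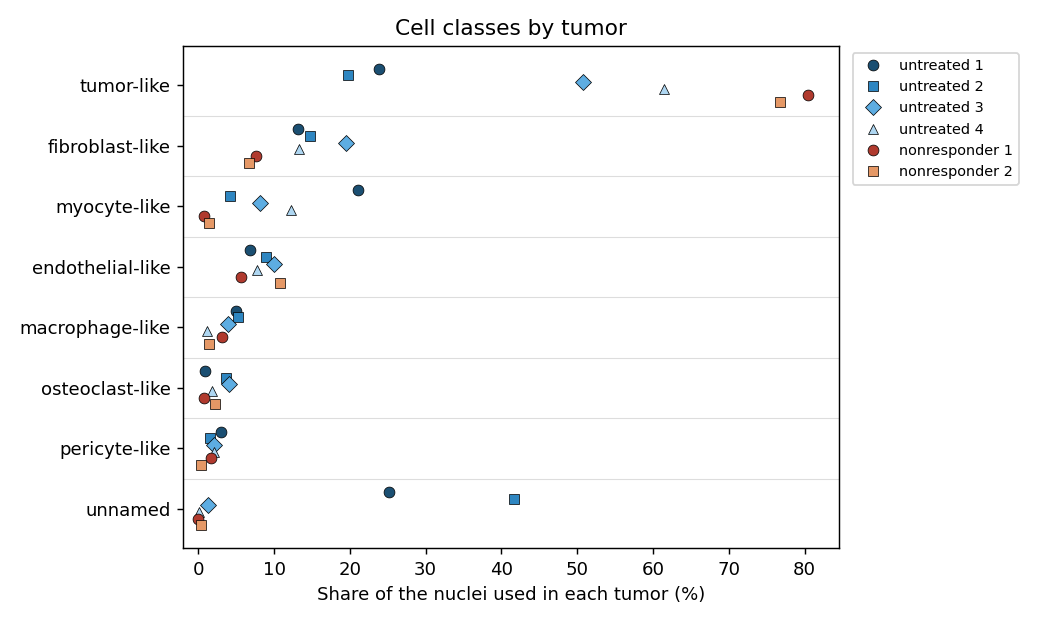
Share of the nuclei used (%, horizontal axis) that fell in each cell class (rows), with 1 point per tumor, untreated in blue and nonresponder in red and orange. Both nonresponder points lie above all untreated points for tumor-like nuclei and below them for fibroblast-like and myocyte-like nuclei, and the unnamed row is led by untreated tumors 1 and 2.

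Counts were then summed over the nuclei of each tumor and compared gene by gene, first over all nuclei and then within each class. With edgeR's quasi-likelihood test no gene passed an adjusted p of 0.05 over all nuclei (0 of 14165, 0%), while 1519 had an unadjusted p under 0.05. DESeq2 called 560 of the 14049 genes for which it gave an adjusted p (3.99%), 45 higher and 515 lower in nonresponder tumors. Both nonresponder tumors lay above all 4 untreated tumors in CPM, that is, UMI counts scaled to an equal total per tumor, for 952 genes (6.72%) and below them for 3137 (22.1%). P-values here measure only the spread between these 6 tumors. In sums over all nuclei, fewer nuclei of a class and less RNA per nucleus cannot be told apart.

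The genes with the smallest p over all nuclei were lower in nonresponder tumors. Csmd1, a large transmembrane protein with complement control domains (chr8:15942537-17585602, minus strand, GRCm39), stood at 593, 517, 653 and 516 CPM in untreated tumors 1 to 4 and at 111 and 104 CPM in the nonresponder tumors. Mpp7, a scaffold protein of cell junctions, stood at 119, 123, 114 and 134 CPM against 25.6 and 19.2 CPM. The 4 untreated tumors lay close together for both genes and far from either nonresponder tumor. The log2 fold changes were -2.27 ± 0.22 (SE) and -2.31 ± 0.22 (SE), the edgeR adjusted p was 0.2287 for each, and DESeq2's adjusted p-values were 2.28e-22 and 1e-16.

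Other lower genes encoded adhesion molecules, channels and a transcription factor. Mitf, which directs melanocyte, osteoclast and lysosomal genes (chr6:97783950-97998323, plus strand), stood at 134 to 210 CPM in untreated tumors and at 48.6 and 49.9 CPM in nonresponder tumors, a log2 fold change of -1.61 ± 0.19 (SE). Chl1, a neural cell adhesion molecule, stood at 136 to 182 CPM against 54.5 and 36.5 CPM. Lrrn1, a leucine-rich repeat membrane protein, stood at 6.63 to 15.2 CPM against 0.648 and 0.83 CPM, and Scn3a, a voltage-gated sodium channel, at 5.82 to 12.4 CPM against 0.81 and 0.623 CPM. Emb (embigin), Rnf19b, a ubiquitin ligase, and Hmgcll1, a ketogenic lyase, had log2 fold changes of -1.38, -1.25 and -1.40. Car3, a carbonic anhydrase abundant in muscle and fat, stood at 122 to 304 CPM against 13.8 and 25.3 CPM, beside the lower share of myocyte-like nuclei. The edgeR adjusted p of each gene in this paragraph was 0.4045.

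Of the 10 named genes that were higher in nonresponder tumors, Spx had the highest CPM. Spx encodes the neuropeptide spexin (chr6:142359167-142365456, plus strand) and stood at 453, 592, 777 and 511 CPM in the untreated tumors and at 1730 and 1681 CPM in the nonresponder tumors. Both nonresponder tumors lay far above the highest untreated tumor, with a log2 fold change of 1.68 ± 0.30 (SE), an edgeR adjusted p of 0.4045 and a DESeq2 adjusted p of 0.000209. Ldhb, a lactate dehydrogenase subunit gene on the same chromosome (chr6:142435672-142454586, minus strand), stood at 25.6 to 36.4 CPM against 74.7 and 50.1 CPM. Lin7a, a polarity scaffold, stood at 35.8 to 60 CPM against 90.8 and 152 CPM, Lrrc3b, a leucine-rich repeat membrane protein, at 9.35 to 14.8 CPM against 26.8 and 31.1 CPM, and Nckap5 at 217 to 288 CPM against 540 and 415 CPM.

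Low or shared transcripts made up the rest of the higher genes. Wbp2nl, a sperm protein gene, had 0 counts in every untreated tumor and 58 and 13 counts in the nonresponder tumors. It passed the filter on low counts through the nonresponder tumors alone, so no fold is given. Meioc, a meiotic gene, had 0, 2, 1 and 0 counts in the untreated tumors and 32 and 105 in the nonresponder tumors. Ado, a cysteamine dioxygenase gene, stood at 7.94 to 11.4 CPM against 17.2 and 19.6 CPM. Hnrnpa1, an RNA-binding protein, and Syngr4 had log2 fold changes of 0.75 and 1.93, but overlap Cbx5 and Kdelr1 with Tmem143, so their counts are uncertain.

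**Figure D2:**
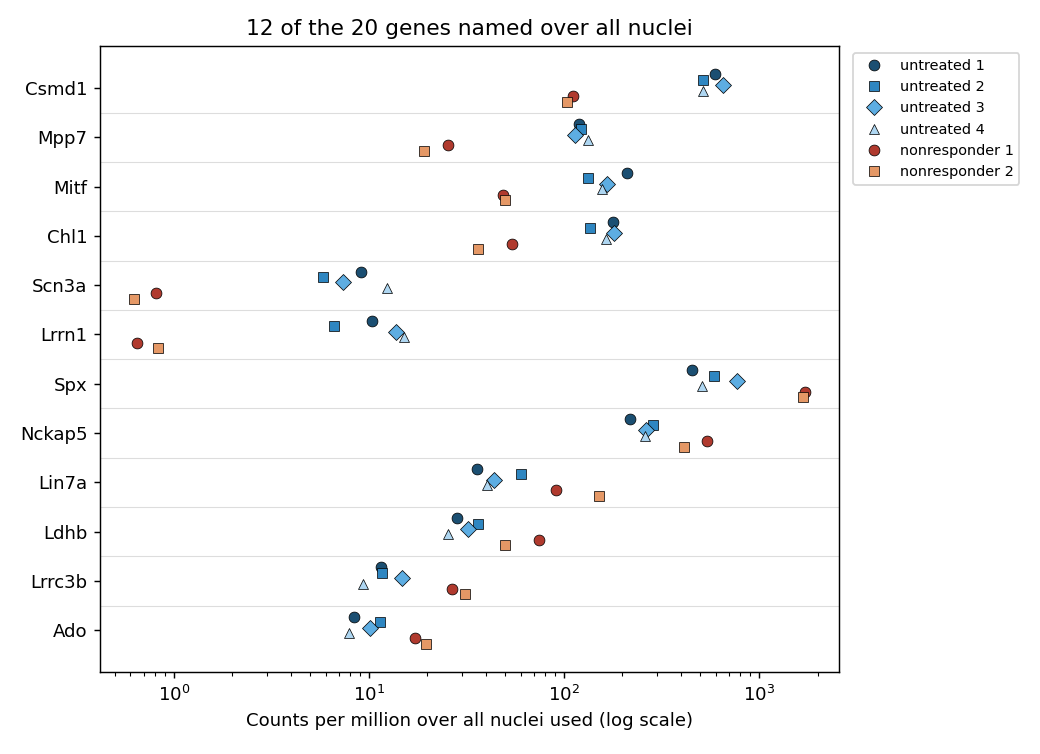
CPM over all nuclei used (horizontal axis, log scale) for 12 of the 20 named genes (rows), with 1 point per tumor. For Csmd1, Mpp7, Mitf, Chl1, Scn3a and Lrrn1 both nonresponder points lie below all untreated points, and for the 6 genes from Spx to Ado both lie above.

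Within tumor-like nuclei Mpp7 had the smallest p, and Chl1 and Csmd1 were again among the lower genes. Plvap, Emilin1 and Serpinh1 had the smallest p among the higher genes. None of 13555 genes passed in edgeR (0 calls, 0%), 980 had p under 0.05 before adjustment, and DESeq2 called 181 of 12867 (1.41%), 20 higher and 161 lower. Both nonresponder tumors lay above the untreated range for 648 genes (4.78%) and below it for 2236 (16.5%). Against untreated tumors 2 to 4 alone, both nonresponder tumors lay above the range for 10.9% and below it for 25.6% of 13897 genes over all nuclei, and for 11.2% and 19.8% of 13310 genes in tumor-like nuclei. The median log2 fold change over all genes was -0.01. The tumor-like class left out the unnamed clusters, nearly all from untreated tumors 1 and 2. Median UMIs per tumor-like nucleus were 8902, 5518, 2581 and 1500 in untreated tumors 1 to 4 and 3201 and 2944 in the nonresponder tumors. With the unnamed clusters added, both nonresponder tumors lay above the untreated range for 4.19% and below it for 16.1% of 13536 genes. All edgeR adjusted p-values of the named genes in tumor-like nuclei were 0.6707.

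Mpp7 stood at 138, 135, 120 and 154 CPM in the tumor-like nuclei of the untreated tumors and at 16.2 and 8.43 CPM in those of the nonresponder tumors, a log2 fold change of -3.34 ± 0.35 (SE) and a DESeq2 adjusted p of 9.38e-18. Csmd1 stood at 352, 200, 292 and 138 CPM against 30.5 and 47.1 CPM, with a log2 fold change of -2.51 ± 0.42 (SE). Chl1 stood at 54.3 to 86.4 CPM against 21.1 and 16.4 CPM. Csmd1 stood at 2526 to 3319 CPM in untreated fibroblast-like nuclei, and the part of free fibroblast RNA in its tumor-like values was not tested.

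Gabrg3, a subunit of the GABA-A receptor (chr7:56366213-57036936, minus strand), had 5868, 521, 691 and 73 counts among tumor-like nuclei of the 4 untreated tumors and 12 and 5 in those of the nonresponder tumors. In CPM the untreated tumors stood at 178, 59.3, 44.4 and 10.5 and the nonresponder tumors at 0.355 and 0.329, so the untreated tumors themselves were widely spread. Pde9a, a cGMP phosphodiesterase, Plxnc1, a semaphorin receptor, and Pik3ap1, an adaptor of PI3K, had log2 fold changes of -1.46 ± 0.26 (SE), -1.26 ± 0.22 (SE) and -2.16 ± 0.40 (SE). Plxnc1 was the most even among untreated tumors, at 20.5 to 21.9 CPM, against 7.33 and 8.88 CPM. Rnf150 and Sgsm1 had log2 fold changes of -1.47 and -1.41, and Scn4a, the muscle sodium channel, one of -3.50 at a level of at most 3.19 CPM and with Prr29 overlapping it.

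Serpinh1, the collagen chaperone HSP47 (chr7:98994220-99005076, minus strand), stood at 143, 153, 157 and 120 CPM in untreated tumor-like nuclei and at 372 and 231 CPM in nonresponder tumor-like nuclei, a log2 fold change of 1.20 ± 0.24 (SE). Emilin1, an elastic fiber glycoprotein, stood at 45.4 to 70.7 CPM against 133 and 106 CPM. Hspa13, a microsomal HSP70 relative, and Prkcsh, the beta subunit of glucosidase II, which trims new glycoproteins, had log2 fold changes of 1.15 ± 0.24 (SE) and 1.04 ± 0.22 (SE). Plvap, a protein of endothelial fenestrae, stood at 27.2 to 39.8 CPM against 56.4 and 62.5 CPM, with Gtpbp3 overlapping it, and in endothelial-like nuclei its groups overlapped.

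H2afx, the histone that is phosphorylated at DNA breaks, stood at 7.74 to 13.3 CPM in untreated tumor-like nuclei and at 26.4 and 20.01 CPM in nonresponder tumor-like nuclei. Ranbp1, a regulator of Ran-dependent transport, had a log2 fold change of 0.75 ± 0.17 (SE) and overlaps Trmt2a. Zfp575 and Meioc were higher at under 6 CPM. Wbp2nl had 48 and 13 counts against 0 in all untreated tumors, and again passed the filter on low counts through the nonresponder tumors alone. Zfp575 overlaps Ethe1, and its counts are uncertain.

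**Figure D3:**
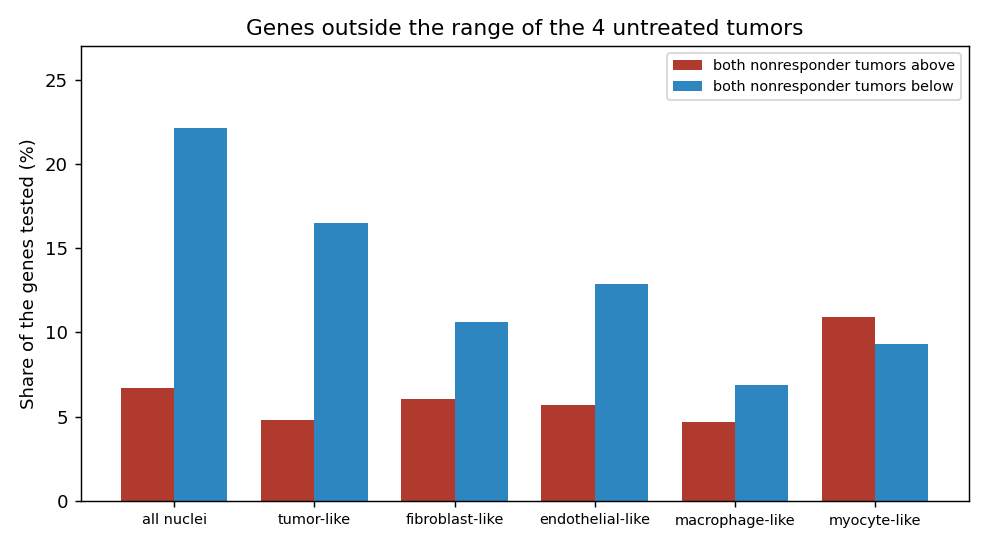
Share of the genes tested (%, vertical axis) for which both nonresponder tumors lay above (red bars) or below (blue bars) all 4 untreated tumors, over all nuclei and in 5 classes. The share below was larger than the share above over all nuclei (22.1% against 6.72%) and in tumor-like nuclei (16.5% against 4.78%), and in myocyte-like nuclei both were close to 10%.

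Most genes that report activity of the fusion overlapped between the groups in tumor-like nuclei, and Vgf was the clearest exception. Of 15 CIC::DUX4 activity genes, 0 were called by edgeR, 13 had a log2 fold change above 0 and 4 lay above the untreated range in both nonresponder tumors, beside 4.78% of all genes. Their median log2 fold change was 0.35, and 0.15 without untreated tumor 1. Without that tumor 10 of the 15 were above 0, 5 lay above the range and 1 below, beside 11.2% and 19.8% of all genes. Vgf, a neuropeptide precursor and a known target of the fusion (chr5:137055246-137062205, plus strand), stood at 1039, 1288, 1001 and 935 CPM in the untreated tumors and at 3806 and 1508 CPM in the nonresponder tumors. The log2 fold change was 1.44 ± 0.40 (SE), the unadjusted p was 0.0104 and edgeR's adjusted p 0.6707, and nonresponder tumor 1 alone stood far above the rest.

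Etv1, the most abundant of the 5 tumor markers, stood at 5030, 4825, 4009 and 4233 CPM against 5624 and 4988 CPM. Etv4 stood at 3382, 2946, 2295 and 3905 CPM against 2364 and 2177 CPM, and Etv5 at 1187 to 1934 CPM against 1647 and 1429 CPM. Shc3 and Shc4, adaptor proteins that couple receptors to RAS, stood at 897 and 827 CPM in untreated tumor 1, at 1778 to 2285 CPM in untreated tumors 2 to 4 and at 1784 to 2407 CPM in the nonresponder tumors. The groups overlapped for all 5. Clusters were named tumor-like from these 5 genes, which are also among the 15 activity genes, so their levels in this class depend on that naming. In all nuclei 11 of the 15 activity genes lay above the untreated range, beside 6.72% of all genes and the larger share of tumor-like nuclei there. All 15 also had log2 fold changes above 0 in fibroblast-like and in endothelial-like nuclei, with medians of 0.77 and 0.78, and the part of free tumor RNA in those values was not tested.

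ERK feedback genes gave no common direction. Of 9 tested in tumor-like nuclei, 6 had a log2 fold change above 0, with a median of 0.12. Of the 9, 2 lay above the untreated range and 1 below, beside 4.78% and 16.5% of all genes. With the unnamed clusters added to the tumor-like class, 1 lay above and 1 below, beside 4.19% and 16.1% of all genes. Dusp6, the phosphatase that switches off ERK, stood at 86.4 to 106 CPM in untreated tumors and at 127 and 120 CPM in nonresponder tumors. Spry2, an inhibitor of receptor tyrosine kinase signaling, stood at 53.2 to 89.2 CPM against 47.2 and 40.5 CPM. Spred1, a brake on RAS signaling, stood at 914 to 1020 CPM against 1074 and 1043 CPM.

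Genes of the complex that the drug targets had log2 fold changes split evenly around 0. Of 10 TFIIH subunit genes, 5 had a log2 fold change above 0 and 5 below in tumor-like nuclei, 0 lay outside the untreated range, and the median was 0.01. When untreated tumor 1 was left out, 1 of the 10 lay above the range and 1 below it, beside 11.2% and 19.8% of all genes. Ercc3, which encodes the helicase that triptolide binds, stood at 12.7, 10.0, 12.1 and 12.3 CPM in untreated tumors and at 13.2 and 11.2 CPM in nonresponder tumors, and its log2 fold change was 0.18 ± 0.24 (SE). Cdk7, the kinase of the complex, stood at 128 to 161 CPM against 149 and 136 CPM. Of 12 RNA polymerase II subunit genes, 8 had a log2 fold change above 0 and 1, Polr2h, lay above the untreated range, at 20.6 to 26.8 CPM against 29.5 and 36.1 CPM. With the unnamed clusters added to the tumor-like class, 0 of the 12 lay above the range, beside 4.19% of all genes. Leaving out untreated tumor 1, 4 of the 12 lay above the range and 1 below it. The all-gene share above the range was 4.78% with that tumor and 11.2% without it.

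Mitotic genes were higher in both nonresponder tumors, as a list, than in any untreated tumor. G2/M genes made up 0.051%, 0.138%, 0.146% and 0.143% of UMIs in untreated tumor-like nuclei and 0.182% and 0.176% in nonresponder tumor-like nuclei. All 23 tested had a log2 fold change above 0, with a median of 0.68, and 19 lay above the untreated range, beside 4.78% of all genes. Without untreated tumor 1 the same count was 19, beside 11.2% of all genes, and the median was 0.42. Ube2c, which loads ubiquitin in mitosis, stood at 6.47 to 9.50 CPM against 14.6 and 11.7 CPM. Aurkb, a mitotic kinase, stood at 5.50 to 15.4 CPM against 21.4 and 22.4 CPM, Ccna2, cyclin A2, at 4.65 to 10.0 CPM against 13.7 and 15.1 CPM, and Cdc20, an activator of the anaphase-promoting complex, at 4.01 to 5.39 CPM against 7.68 and 6.91 CPM. edgeR called 0 of the 23, with 1 at an unadjusted p under 0.05.

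The share of nuclei with 2 or more G2/M UMIs was set at an equal depth of 1000 UMIs per nucleus. It was 9.82%, 33.5%, 39.7% and 41.5% of tumor-like nuclei in the untreated tumors and 48.3% and 43.1% in the nonresponder tumors, and at full depth 59.8%, 82.9%, 73.1% and 63.3% against 88.1% and 78.1%. The exact permutation p at equal depth was 0.1333. Myocyte-like nuclei, which do not divide, gave 1.91%, 15.5%, 15.5% and 12.8% in the untreated tumors and 37.1% and 28.6% in the nonresponder tumors, so the share in nuclei that should lack these transcripts moved in the same direction. A myocyte-like cluster with markers of several other classes raised, 4 tumor markers among them, held 27 and 3 nuclei of nonresponder tumors 1 and 2. It held 349, 66, 24 and 2 nuclei of untreated tumors 1 to 4. The part of free RNA in the share of tumor-like nuclei was not tested.

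S phase genes showed the same sign with less separation. Of 23 tested, 21 had a log2 fold change above 0, with a median of 0.41, and 3 lay above the untreated range, beside 4.78% of all genes. Mcm7, a replicative helicase subunit, stood at 25.5 to 32.0 CPM against 40.9 and 38.6 CPM, and Pcna, the replication clamp, at 18.6 to 25.7 CPM against 26.9 and 27.6 CPM. All 20 DNA damage and replication stress genes had a log2 fold change above 0, with a median of 0.37. Of the 20, 4 lay above the untreated range, beside 4.78% of all genes, among them Topbp1, Atm and Chek2. Topbp1, an activator of the ATR checkpoint kinase, stood at 101 to 180 CPM against 202 and 218 CPM. Without untreated tumor 1 the medians of the S phase and DNA damage lists were 0.15 and 0.20, and 19 of 23 and 16 of 20 were above 0. Then 3 S phase genes lay above the range, and 5 DNA damage genes above and 1 below. The shares of all genes without that tumor were 11.2% above and 19.8% below.

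Interferon response genes took a smaller share of UMIs in both nonresponder tumors than in any untreated tumor, and untreated tumor 1 had the largest share. Leukocyte markers were lower in the same tumor-like nuclei. All 8 macrophage markers had a log2 fold change below 0, with a median of -0.90. Without untreated tumor 1, 5 of the 8 were below 0, with a median of -0.21. Their summed share overlapped, at 0.0186% to 0.0679% in untreated and 0.027% and 0.0182% in nonresponder tumors. The part of leukocyte RNA in the interferon, MHC and NF-kB lists was not tested. Interferon response genes made up 0.0647%, 0.0289%, 0.0303% and 0.0252% of UMIs in untreated tumor-like nuclei and 0.0197% and 0.019% in nonresponder tumor-like nuclei. All 30 tested had a log2 fold change below 0, with a median of -1.20, and 13 lay below the untreated range, beside 16.5% of all genes. Without untreated tumor 1, 26 of 27 were below 0, the median was -0.72 and 13 lay below the range, beside 19.8% of all genes. edgeR called 0 of them, with 6 at an unadjusted p under 0.05.

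Stat2, part of the complex that carries the type I interferon signal, stood at 52.5, 25.6, 30.7 and 29.1 CPM in untreated tumor-like nuclei and at 17.0 and 15.1 CPM in nonresponder tumor-like nuclei. Iigp1, an immunity-related GTPase, stood at 37.3, 9.91, 9.57 and 4.87 CPM against 1.54 and 2.43 CPM, and Nlrc5, the activator of MHC class I genes, at 26.8, 11.3, 5.20 and 4.15 CPM against 1.39 and 1.91 CPM. DESeq2's adjusted p-values for these were 0.0937, 0.0393 and 0.044. Parp14, an interferon-induced ADP-ribosyltransferase, stood at 11.2 to 51.7 CPM against 6.71 and 6.52 CPM. In each gene both nonresponder tumors lay below the lowest untreated tumor.

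Of 11 MHC class I genes, 8 had a log2 fold change below 0, with a median of -0.89. In this list 4 lay below the range, beside 16.5% of all genes. Psmb8, an immunoproteasome subunit, lay above the range at 17.4 and 22.4 CPM against 11.2 to 15.7 CPM. H2-K1, a classical class I chain, stood at 219 CPM in untreated tumor 1, at 28.1 to 46.2 CPM in the other untreated tumors and at 21.9 and 23.2 CPM in nonresponder tumors. All 7 MHC class II genes tested were below 0 (median -0.90), and 2 lay below the range, beside 16.5% of all genes. Macrophage markers, all 8 of them, were also below 0 in the same nuclei. Ciita, the master activator of class II genes, stood at 16.7, 13.7, 6.61 and 7.31 CPM against 2.01 and 3.69 CPM. Without untreated tumor 1 the medians of the MHC class I and II lists were -0.28 and -0.26, and 5 of the 8 macrophage markers were below 0.

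NF-kB and cytokine genes took 0.123%, 0.0614%, 0.0501% and 0.04805% of UMIs in untreated tumor-like nuclei and 0.04785% and 0.04799% in nonresponder tumor-like nuclei, nearly the level of untreated tumor 4. Of 19 tested, 18 had a log2 fold change below 0, 6 lay below the range, beside 16.5% of all genes, and the median was -0.58. The count below the range without untreated tumor 1 was 6, beside 19.8% of all genes, and the median was -0.25. Csf1, the growth factor of macrophages and osteoclast precursors, stood at 27.6 to 70.4 CPM against 19.2 and 16.2 CPM. Relb, an NF-kB subunit, stood at 17.9 to 37.3 CPM against 7.42 and 12.2 CPM, and Birc3, an inhibitor of apoptosis that NF-kB induces, at 24.1 to 76.4 CPM against 18.2 and 11.6 CPM.

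T and NK cell transcripts were scarce in all 6 tumors and scarcest in the nonresponder tumors. A T and NK cluster held 90 nuclei, of which 85 came from untreated tumor 1, 4 from untreated tumor 2 and 1 from nonresponder tumor 2. T and NK markers took 0.0137%, 0.002%, 0.000867% and 0.00128% of UMIs in untreated tumor-like nuclei and 0.000207% and 0.000454% in nonresponder tumor-like nuclei. Of the 8 markers, only 4 passed the filter on low counts, which they could pass through the untreated tumors alone, so no count of them is given. Of 11 checkpoint and T cell genes, 8 had a log2 fold change below 0, with a median of -0.38. Of the 11, 3 lay below the range, beside 16.5% of all genes. Cd274, which encodes PD-L1, stood at 10.9, 3.30, 2.05 and 2.01 CPM against 1.27 and 0.724 CPM, and Cd86, a costimulatory ligand, at 4.69 to 41.7 CPM against 1.98 and 3.03 CPM. Macrophage state genes were below 0 in 18 of 20, with a median of -0.84 and, without untreated tumor 1, of -0.15.

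Immediate early genes were not uniformly lower. Of 20 tested in tumor-like nuclei, 16 had a log2 fold change below 0 and 5 lay below the range, beside 16.5% of all genes, with a median of -0.40. Without untreated tumor 1, which held 0.107% of UMIs in these genes against 0.0411% to 0.048% in the other untreated tumors, 9 of 20 were below 0 and the median was 0.02. Fosl2, an AP-1 subunit, stood at 35.9, 22.0, 30.2 and 21.5 CPM in untreated tumors and at 10.4 and 12.4 CPM in nonresponder tumors, with a DESeq2 adjusted p of 0.0142. Jun stood at 102 CPM in untreated tumor 1, at 23.7 to 33.1 CPM in the others and at 15.2 and 17.4 CPM in nonresponder tumors. Egr3 and Egr1, zinc finger factors, also lay below the untreated range.

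Of the drug efflux and phosphatase genes, Abcc5 and Abcb1b lay below the untreated range and most others overlapped. The list took 0.0861%, 0.0326%, 0.0373% and 0.0324% of UMIs in untreated tumor-like nuclei and 0.0184% and 0.0319% in nonresponder tumor-like nuclei, and nonresponder tumor 2 was close to the untreated tumors. Of 9 tested, 8 had a log2 fold change below 0 and 3 lay below the range, beside 16.5% of all genes, with a median of -0.78, and -0.58 without untreated tumor 1. Abcc5, an exporter of cyclic nucleotides and nucleotide analogs (chr16:20150053-20245192, minus strand), stood at 83.6, 69.1, 73.8 and 72.5 CPM against 40.2 and 39.4 CPM, a log2 fold change of -0.78 ± 0.16 (SE) with an unadjusted p of 0.00248, an edgeR adjusted p of 0.6707 and a DESeq2 adjusted p of 0.000237. Abcb1b, one of the P-glycoprotein genes, stood at 41.8, 11.6, 11.04 and 8.60 CPM against 3.10 and 4.41 CPM, while its relative Abcb1a overlapped, at 2.58 to 8.59 CPM against 2.60 and 2.76 CPM.

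**Figure D4:**
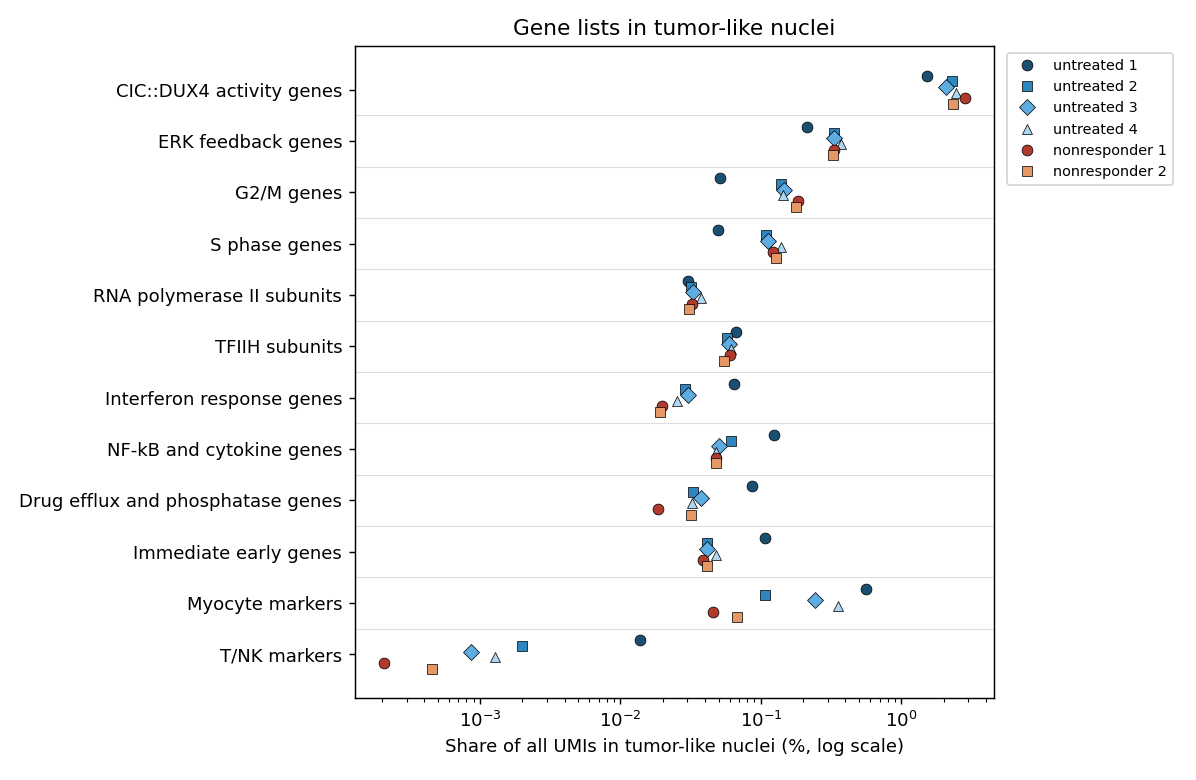
Share of all UMIs in tumor-like nuclei (%, horizontal axis, log scale) taken by each gene list (rows), with 1 point per tumor. Both nonresponder points lie above all untreated points for G2/M genes and below them for interferon response, NF-kB, drug efflux and phosphatase, myocyte marker and T/NK marker genes, and untreated tumor 1 is farthest from the others in several rows.

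Among growth factor genes, Mdk was higher and Fgf2 and Hgf lower in both nonresponder tumors than in any untreated tumor. Of 24 receptor tyrosine kinase and ligand genes in tumor-like nuclei, 15 had a log2 fold change below 0, 2 lay above the untreated range and 6 below it, beside 4.78% and 16.5% of all genes, and the median was -0.39. Mdk, the heparin-binding growth factor midkine (chr2:91760143-91762846, minus strand), stood at 7.20, 33.3, 16.8 and 11.9 CPM in untreated tumors and at 96.0 and 75.6 CPM in nonresponder tumors, a log2 fold change of 2.42 ± 0.59 (SE) and a DESeq2 adjusted p of 0.0331. Fgf2, a fibroblast growth factor, stood at 6.49 to 12.8 CPM against 2.92 and 3.55 CPM, and Hgf, the ligand of Met, at 6.49 to 10.4 CPM against 4.05 and 2.90 CPM. Pdgfb had a log2 fold change of -0.67. edgeR's adjusted p was 0.6707 for all 4.

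Among 19 angiogenic ligands and receptors, 9 were above 0 and 3 lay above the range, beside 4.78% of all genes. Aplnr, the apelin receptor, stood at 6.59 to 13.4 CPM against 22.6 and 22.3 CPM, its ligand gene Apln at 2.88 to 9.18 CPM against 11.3 and 27.4 CPM, and Esm1, a marker of endothelial tip cells, at 0.243 to 3.15 CPM against 4.93 and 9.35 CPM. The list's median was -0.04, and 0.38 without untreated tumor 1, whose tumor-like nuclei also held 0.337% of UMIs in endothelial markers against 0.0578% to 0.07% in the other untreated tumors.

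Chaperone lists were split by member. Of 16 heat shock genes, 9 were above 0 with a median of 0.03. With the unnamed clusters added to the tumor-like class, 5 were above 0 and the median was -0.03. Hsp90ab1, the constitutive cytosolic HSP90, stood at 346, 249, 244 and 231 CPM in untreated tumors and at 432 and 371 CPM in nonresponder tumors, a log2 fold change of 0.73 ± 0.18 (SE) with a DESeq2 adjusted p of 0.00408, while Bag3, a stress-induced cochaperone, stood at 38.7 to 70.1 CPM against 24.4 and 28.9 CPM. Of 17 unfolded protein response genes, 9 were above 0 with a median of 0.03. Hsp90b1, the HSP90 of the endoplasmic reticulum, stood at 229 to 279 CPM against 424 and 286 CPM, and Ern1, a stress sensor in its membrane, at 58.0 to 130 CPM against 51.4 and 39.03 CPM.

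Metabolic and redox genes differed member by member. Of 22 features of glycolysis and hypoxia, counting both that carry the symbol Aldoa, 16 were above 0, with a median of 0.35. Of the 22, 3 lay above the range and 2 below, beside 4.78% and 16.5% of all genes. With the unnamed clusters added to the tumor-like class, 0 lay above and 1 below, beside 4.19% and 16.1% of all genes. Pgam1, a glycolytic mutase, stood at 14.9 to 29.2 CPM against 33.9 and 48.6 CPM, and Slc2a1, the glucose transporter GLUT1, at 15.7 to 23.8 CPM against 26.1 and 36.3 CPM. Of 16 NRF2 target genes, 10 were below 0, with a median of -0.23. In that list 2 lay above the range and 5 below, beside 4.78% and 16.5% of all genes. Nfe2l2, which encodes NRF2 itself, stood at 69.8 to 138 CPM against 51.4 and 54.1 CPM, Slc7a11, the cystine transporter, at 7.83 to 40.4 CPM against 2.87 and 5.13 CPM, and Gstm1, a glutathione transferase, at 9.60 to 16.9 CPM against 17.8 and 26.1 CPM.

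Several lists centered near 0. Of 20 p53 target genes, 10 were above 0 with a median of 0.01, and Aen, a nuclease that p53 induces, stood at 12.5 to 24.5 CPM against 27.5 and 26.99 CPM. Of 18 BCL2 family and Xiap genes, 12 were below 0 with a median of -0.19, and Bcl2l1, which encodes the survival protein BCL-xL, stood at 65.6 to 164 CPM against 56.1 and 49.6 CPM. Ribosome biogenesis genes were above 0 in 11 of 16 (median 0.10), oncofetal and stemness genes in 8 of 16 (median 0.02), collagen genes in 8 of 18 (median -0.10) and matrix remodeling genes in 14 of 25 (median 0.10). Fap, a protease of activated fibroblasts, stood at 38.8 to 97.5 CPM against 14.4 and 37.98 CPM, and Loxl2, which crosslinks collagen, at 7.10 to 15.5 CPM against 20.7 and 22.6 CPM. Y chromosome genes were above 0 in all 4, beside their near absence in untreated tumor 4.

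Myocyte markers, summed, took a smaller share of UMIs in both nonresponder tumors than in any untreated tumor in tumor-like, fibroblast-like, endothelial-like and macrophage-like nuclei, beside the lower share of myocyte-like nuclei. In tumor-like nuclei, 7 of 8 myocyte markers lay below the untreated range, beside 16.5% of all genes, and Ryr1 had a log2 fold change of 0.17. The list took 0.558%, 0.106%, 0.242% and 0.353% of UMIs in untreated tumors against 0.0454% and 0.0681% in nonresponder tumors. Of 16 genes of regenerating and denervated muscle, 13 were below 0 and 9 lay below the range, beside 16.5% of all genes. Myh8, the perinatal myosin, was among the 9, at 3.44 to 8.23 CPM against 0.827 and 1.05 CPM. Neb, the giant thin filament protein nebulin, stood at 186 to 1530 CPM in macrophage-like nuclei of untreated tumors and at 38.02 and 57.5 CPM in those of nonresponder tumors. In myocyte-like nuclei, Neb stood at 11400, 12430, 12250 and 12460 CPM against 10570 and 8897 CPM, and the log2 fold change of Myh4 there was -0.00. The part of free muscle RNA in the other classes was not tested.

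In fibroblast-like nuclei, Col4a5 and its neighbor Col4a6 were higher and Csmd1 and Sned1 lower in nonresponder tumors. None of 12052 genes passed in edgeR (0 calls, 0%), 565 had p under 0.05 before adjustment, and DESeq2 called 16 (0.136%), 4 higher and 12 lower. Both nonresponder tumors lay above the untreated range for 6.06% of genes and below it for 10.6%. Untreated tumor 1 held 812 of its 1248 fibroblast-like nuclei in a cluster that was almost its own. Nonresponder tumor 1 held 446 of 752 in a cluster led by Tafa2 and Inhba, which also had 4 tumor markers raised. The other tumors were mostly in a cluster led by Pdzrn4 and Brinp3. The part of tumor RNA in the fibroblast-like values was not tested. The edgeR adjusted p of each named gene was 0.937.

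Col4a5, a chain of basement membrane collagen IV (chrX:140258354-140472231, plus strand), stood at 92.4, 109, 97.3 and 90.4 CPM in untreated fibroblast-like nuclei and at 299 and 233 CPM in nonresponder ones, a log2 fold change of 1.505 ± 0.181 (SE) with a DESeq2 adjusted p of 9.11e-06. Its neighbor Col4a6, the partner chain (chrX:139948399-140257072, minus strand), stood at 46.9, 118, 86.0 and 107 CPM against 326 and 290 CPM. Adamts6, a secreted metalloprotease, stood at 484 to 604 CPM against 870 and 1130 CPM, and Ptchd4, a patched-related membrane protein, at 73.4 to 103 CPM against 180 and 148 CPM. Hist1h1e, a linker histone, had a log2 fold change of 1.32. Col4a5 was also above 0 in the other 5 classes, and in tumor-like nuclei it stood at 329 to 509 CPM against 560 and 884 CPM.

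Among the classes tested, Csmd1 was most abundant in fibroblast-like nuclei, at 3319, 2727, 2526 and 2615 CPM in untreated tumors and 906 and 1124 CPM in nonresponder tumors, a log2 fold change of -1.41 ± 0.24 (SE) and a DESeq2 adjusted p of 2.47e-10. Sned1, a secreted matrix protein (chr1:93163558-93228787, plus strand), stood at 592, 613, 688 and 771 CPM against 277 and 193 CPM, with Mterf4 overlapping it. Rspo2, which amplifies WNT signals, stood at 15.3 to 28.2 CPM against 1.93 and 5.48 CPM. Tnfaip8l3, a lipid transfer protein, and Slc9a7, a sodium and proton exchanger, had log2 fold changes of -1.74 and -2.73. Csmd1 was thus lower in the class tested where it was highest as well as in tumor-like nuclei.

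Endothelial-like nuclei gave 0 edgeR calls in 11029 genes (0%), and 680 genes had p under 0.05 before adjustment. DESeq2 called 36 (0.327%), 4 higher and 32 lower, and 5.69% and 12.9% of genes lay above and below the untreated range. Untreated tumor 1 again had 632 of its 641 endothelial-like nuclei in a cluster apart from the one that held most of the other tumors'. Ehd3, an endocytic ATPase, stood at 41.5 to 53.4 CPM in untreated tumors and at 98.9 and 92.4 CPM in nonresponder tumors, and Ptchd4 at 25.1 to 73.6 CPM against 192 and 214 CPM. Atf3, a stress-induced transcription factor, stood at 8.51 to 13.5 CPM against 23.6 and 47.7 CPM, Apold1, an early response gene of endothelium, at 67.4 to 144 CPM against 219 and 294 CPM, and Scn1a at 0 to 2.13 CPM against 19.1 and 9.04 CPM. Among lower genes were Abi3bp, a matrix protein, at 25.6 to 40.4 CPM against 7.29 and 5.53 CPM, and Spon1, at 29.4 to 36.3 CPM against 7.29 and 9.55 CPM. Gria2, a glutamate receptor subunit, and the muscle genes Myh2 and Trdn were also lower, at an edgeR adjusted p of 0.7976 for all 10.

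Among 10610 genes of myocyte-like nuclei edgeR made 0 calls (0%), though p was under 0.05 before adjustment for 623. DESeq2 called 6 of 5659 (0.106%), 2 higher and 4 lower, and 10.9% and 9.31% of genes lay above and below the untreated range. These values rest on only 70 nuclei in each nonresponder tumor, and precision was not compared between classes. Of the 70 in nonresponder tumor 1, 27 came from a cluster that also had markers of several other classes raised. Untreated tumor 1 held 1575 of its 1994 myocyte-like nuclei in a cluster led by the atrophy genes Trim63 and Fbxo32 that held 5 nuclei of the other tumors. Several sarcomere genes were lower. Myoz2, a Z-disc protein of slow fibers, stood at 66.7 to 116 CPM in untreated tumors and at 6.87 and 17.3 CPM in nonresponder tumors, Csrp3, a muscle LIM protein, at 66.7 to 128 CPM against 10.3 and 17.3 CPM, and Tnnt1, slow troponin T, at 37.6 to 165 CPM against 0 and 4.33 CPM. Myh2, the fast oxidative myosin, stood at 313 to 449 CPM against 131 and 60.6 CPM, and Ntn4 at 23.1 to 40.4 CPM against 0 and 4.33 CPM. Nckap5 stood at 66.3 to 127 CPM against 337 and 381 CPM, and Cep112, Bcar3, Tnfrsf22 and Frmpd1 had log2 fold changes of 1.47, 1.59, 2.11 and 2.32. edgeR's adjusted p was 0.8298 for each.

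Macrophage-like nuclei had 0 edgeR calls in 9471 genes (0%) and 253 genes with p under 0.05 before adjustment. They numbered only 62 in untreated tumor 4 and 70 in nonresponder tumor 2. DESeq2 called 4 (0.0423%), all lower, and 4.71% and 6.86% of genes lay above and below the untreated range. Of 466 such nuclei in untreated tumor 1, 459 lay in a cluster of 465 led by F13a1, Ccl6 and Wfdc17, and the other tumors were mostly in another cluster, which also had all 5 tumor markers raised. Several of the leading genes mark muscle or tumor cells. Myh2, Neb, Myh4 and Trdn, all of muscle, were lower, and Cytl1, at 70.2 to 278 CPM against 1231 and 364 CPM, was higher, where tumor-like nuclei of the same tumors stood at 46.5 to 208 CPM against 1433 and 282 CPM. Serpinh1 and Emilin1 were higher as in tumor-like nuclei, with log2 fold changes of 1.06 and 1.20, and Podxl2 and Eda2r had 2.17 and 1.71. Steap4, a metalloreductase, stood at 9.37 to 35.7 CPM against 0.792 and 0 CPM, and all edgeR adjusted p-values were 1.

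In pericyte-like nuclei only nonresponder tumor 1 had enough nuclei, so the fit had 1 tumor in that arm and assumed that it varied like the untreated tumors. There were 0 edgeR calls in 9243 genes (0%), and 201 genes had p under 0.05 before adjustment. DESeq2 called 4 (0.0433%), 3 higher and 1 lower, and 13.5% and 16.8% of genes lay above and below the untreated range. Genes that lead the tumor-like clusters of the same tumor were among those with the smallest p. Csmd3 stood at 0 to 4.53 CPM in untreated tumors and at 110 CPM in nonresponder tumor 1, whose tumor-like nuclei held 137 CPM against 1.78 CPM in nonresponder tumor 2. Fam155a, Hgf, Cytl1 and Gas2 were higher and Pde8b, Slc38a11, Acss1, Ccdc85a and Ccser1 lower, with edgeR adjusted p-values of 0.2849 for Csmd3 and Fam155a and 0.9997 for the others.

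A few genes kept 1 direction across classes. Spx lay above the untreated range in every class tested, from 583 to 1038 CPM against 1895 and 1903 CPM in tumor-like nuclei to 131 to 423 CPM against 1097 and 877 CPM in endothelial-like nuclei. Its level was highest in tumor-like nuclei in all 6 tumors, and the part of free tumor RNA in its values in the other classes was not tested. Csmd1 lay below the range in tumor-like, fibroblast-like, endothelial-like and myocyte-like nuclei, overlapped in macrophage-like nuclei, and had a log2 fold change of 0.31 ± 0.75 (SE) in pericyte-like nuclei. Mpp7 had log2 fold changes of -3.34 ± 0.35 (SE) in tumor-like nuclei but -0.91 ± 0.22 (SE) and -0.94 ± 0.20 (SE) in fibroblast-like and endothelial-like nuclei. Whether the classes differed from each other in these effects was not tested.

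**Figure D5:**
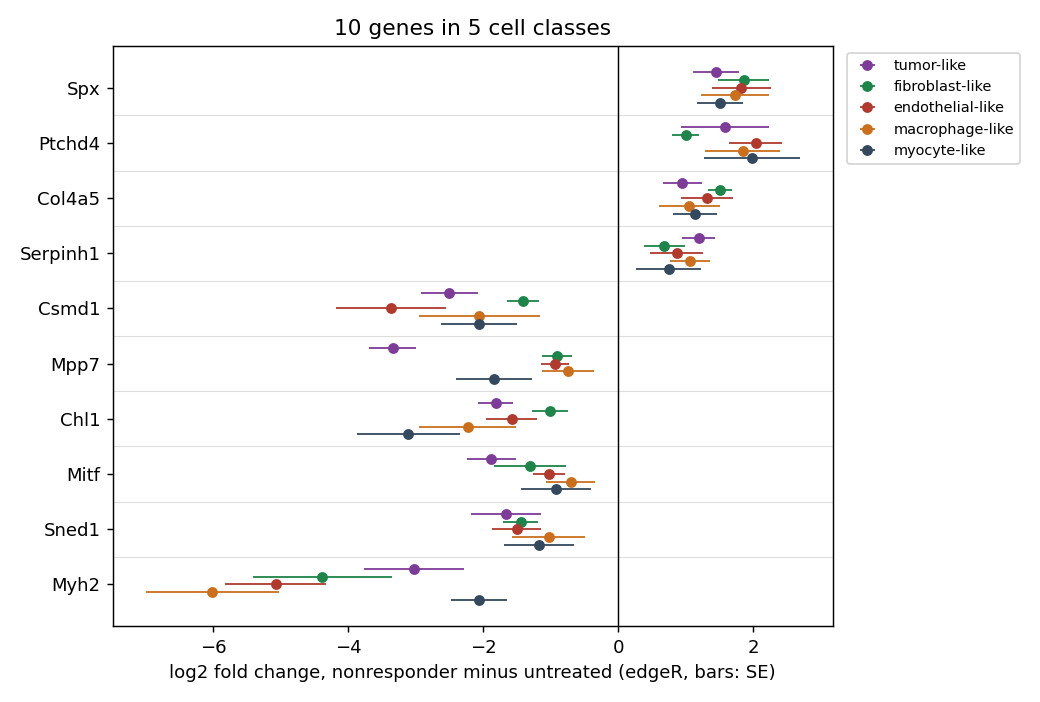
log2 fold change of nonresponder minus untreated tumors (horizontal axis, edgeR, bars are SE) for 10 genes (rows) in 5 cell classes (colors). Spx, Ptchd4, Col4a5 and Serpinh1 lie right of 0 in all 5 classes and the other 6 genes lie left of it in all 5. Pericyte-like nuclei, with 1 nonresponder tumor, are not shown. There Csmd1 and Chl1 had DESeq2 log2 fold changes above 0, at 0.31 and 1.22, and the other genes kept their side. The part of free RNA from other classes was not tested.

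The 2 nonresponder tumors also differed from each other. Their tumor-like nuclei were over 4-fold apart in 359 of 13555 genes (2.65%), more than any pair among untreated tumors 2 to 4, which were apart in 73 to 204 (0.539% to 1.5%). Csmd3 at 137 and 1.78 CPM and Cytl1 at 1433 and 282 CPM were higher in nonresponder tumor 1, whose clusters were led by Cytl1, Vgf and Dlk1 and by Csmd3 and Spock3. The clusters of nonresponder tumor 2 were led by Adgrv1, Icos, Meis2 and Zfp804b. At an equal depth of 1000 UMIs, both nonresponder tumors held fewer genes per tumor-like nucleus, with medians of 752 and 739 against 833, 768, 757 and 764 in the untreated tumors, an exact permutation p of 0.1333.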

How the data were processed

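Tumors of dFLEx CDS mice were analyzed by single-nucleus RNA-seq, from UMI counts per gene and nucleus that the authors deposited as filtered matrices of 19059 features. Submitters' processing notes name bcl2fastq 2.20, Cell Ranger 7.0.1 and mm39, and the matrix headers Cell Ranger 9.0.1. Nuclei had at least 1000 UMIs and under 5% mitochondrial UMIs, and doublets were removed only in an alternative, at 0.8% per 1000 nuclei. All 6 tumors were clustered together with scanpy 1.11.5 (2000 variable genes, none of them a marker or listed gene, 30 components, 40 neighbors, Leiden at resolution 1, 29 clusters). A marker was raised where, averaged over tumors, it lay 1.5-fold over the 10th percentile of the clusters of the same tumor (pseudocount 20 CPM) in at least 5% of nuclei. A cluster took the class with the highest mean among those with at least 3 raised markers, unless its leading genes went against it.

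Counts summed per tumor and class (at least 20 nuclei) were tested with edgeR 4.0.16 (R 4.3.3; low-count filter, TMM, quasi-likelihood test, Benjamini-Hochberg at 0.05) and alternatively DESeq2 1.42.0. A check on simulated data came first. Its simulated tumors shared the same gene means apart from set changes, and none stood apart. It therefore does not show how the tests perform on these tumors. Shares were tested by exact permutation over tumors. CPM are UMI counts scaled to the total of the tumor or class. GENCODE M39 gave positions and overlapping genes. Overlaps are stated above for some genes only. Others named also overlap a coding gene, among them Polr2h, Fgf2, Mcm7, Abi3bp, Bcar3, Hsp90ab1, Esm1 and Cd274. Named genes were, in each fit, the 10 per direction (5 in classes other than tumor-like) with the smallest p outside the untreated range, and list members the 4 with the smallest p. Members outside that rule, such as Ercc3, Cdk7, Etv1 or Abcb1a, were named for their role after their values were seen. The closing section gives the alternatives tried. Members, markers and the 29 gene lists were chosen with earlier results of these data known, and support nothing on their own.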

Additional observations from a re-analysis of the deposited data

Results flagged for a closer look

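In 71 values examined, 17 had 1 untreated tumor apart from the other 3 by more than 0.829 of the group's range (Dixon's test at 95%), where chance gives about 1 in 20. Of these, 16 were untreated tumor 1, and many of the values share genes or nuclei. Its median genes per nucleus at 1000 UMIs were 794 over all nuclei, against 762 to 766 in the other untreated tumors, and 833 in tumor-like nuclei, against 757 to 768. Its share of nuclei with 2 or more G2/M UMIs was 6.18%, against 28.3% to 32.4%.

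Over all nuclei of untreated tumor 1, G2/M genes made up 0.0427% of UMIs, where the range of the other 3 was 0.112% to 0.124%, immediate early genes 0.125% against 0.0564% to 0.0669%, and oncofetal and stemness genes 0.236% against 0.505% to 0.542%. In its tumor-like nuclei G2/M genes took 0.051% against 0.138% to 0.146%, oncofetal and stemness genes 0.31% against 0.703% to 0.738%, and regenerating muscle genes 0.167% against 0.211% to 0.216%.

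Lists of stress and immune response genes were also higher among tumor-like nuclei of that tumor. Immediate early genes took 0.107% against 0.0411% to 0.048%, interferon response genes 0.0647% against 0.0252% to 0.0303%, and MHC class I genes 0.0674% against 0.014% to 0.022%. BCL2 family genes took 0.253% against 0.133% to 0.15%, heat shock genes 0.132% against 0.0803% to 0.0846%, unfolded protein response genes 0.149% against 0.0839% to 0.0932%, and drug efflux and phosphatase genes 0.0861% against 0.0324% to 0.0373%.

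The other value was the share of glycolysis and hypoxia genes over all nuclei, which was 0.161% in untreated tumor 3 against 0.215% to 0.223% in the other untreated tumors.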

How the results depend on the processing

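The fits held 4 tumors against 2, and 1 tumor of the untreated group stood apart. The gene calls depended on the test, and the reason was not tested. edgeR called 0 genes in every class, where DESeq2 called 560 over all nuclei, 181 in tumor-like, 16 in fibroblast-like, 6 in myocyte-like, 36 in endothelial-like, 4 in macrophage-like and 4 in pericyte-like nuclei. Leaving out 1 tumor at a time gave 0 to 1 calls over all nuclei (1 without nonresponder tumor 2), 0 to 2 in fibroblast-like nuclei and 0 to 10 in pericyte-like nuclei (2 and 10 without untreated tumor 1), and 0 in the other classes. Of 1081 values of the named genes under alternatives, 1013 kept their direction and side of the threshold, 68 passed it and 0 reversed. The named genes were picked with nonresponder tumors outside the untreated range, so reversals were unlikely when 1 tumor was left out. With 0 edgeR calls at the start, no call could be lost, so these counts do not measure stability. A lone tumor in an arm was assumed to vary like the other group.

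The difference in the share of tumor-like nuclei was 22.83 points with the added clusters, 29 at resolution 0.5, 21.35 with nuclei of at least 500 UMIs and -0.8723 under stricter naming, and 33.3 to 47.17 when 1 tumor was left out. That of endothelial-like nuclei, -0.1192 points, was 0.03238 and 0.02132 at resolutions 0.5 and 2, 0.4639 under stricter naming, 0.01373 without doublets, 0.7324 from 500 UMIs, and -2.698 to 2.459 when 1 tumor was left out (0.06684 without untreated tumor 2, 0.4227 without untreated tumor 3, 2.459 without nonresponder tumor 1). The causes were not tested.

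Of 448 list medians under alternatives, 438 moved by less than the SD between the untreated tumors, a spread that includes untreated tumor 1. Large shifts could thus count as unmoved. Without untreated tumor 1, the median of immediate early genes in tumor-like nuclei went from -0.3965 to 0.02264. That of MHC class I genes went from -0.8943 to -0.2796, and both shifts counted as less than that SD. Leaving out 1 tumor moved the median log2 fold change in tumor-like nuclei to -0.3267 to 0.3842 for angiogenic genes, -1.508 to -0.2525 for checkpoint and T cell genes (-1.203 without the filter on low counts), 0.04778 to 0.297 for ERK feedback genes, 0.1536 to 0.5185 for glycolysis, -0.4293 to -0.2105 for receptor tyrosine kinases and ligands, and -1.859 to -0.7161 for regenerating muscle genes.

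Under stricter naming too few tumor-like nuclei were left for a gene test, and it gave no macrophage-like, osteoclast-like or pericyte-like nuclei. No paired analysis was possible because the labels tie no untreated tumor to a treated one, and shared barcodes follow the multiplexing tag. The 70 myocyte-like nuclei of each nonresponder tumor limit that class.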
